A study of Mus musculus with 18 samples.

Results

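The 7 genes that set and reverse the phosphorylation of the translation factor eIF2α were followed in mouse embryonic stem cells deprived of an amino acid. They are the 4 eIF2α kinases Eif2ak1 (HRI), Eif2ak2 (PKR), Eif2ak3 (PERK) and Eif2ak4 (GCN2), the phosphatase regulatory subunits Ppp1r15a (GADD34) and Ppp1r15b (CReP), and Impact, an inhibitor of GCN2. They were matched by gene symbol in the GENCODE vM21 annotation and make up 7 of the 55471 gene identifiers in the raw count tables. All 7 passed the filter on low counts in every fit. RNA came from the E14 line, embryonic stem cells kept pluripotent on gelatin with serum and leukaemia inhibitory factor. Wild-type cells (Wt) and cells of genotype Eif2ak4-/- (Gcn, a GCN2 knock-out) were kept for 3 h in medium without arginine (Arg), without leucine (Leu) or with all amino acids (Unstarved). All 6 groups received the same base medium with 5% dialyzed serum, and each group held 3 libraries. The labels do not state which part of Eif2ak4 was altered, how many clones carry the alteration, or whether the libraries of a group came from separate cultures. P-values therefore measure only the spread between these libraries, which may be technical, and genotype and culture history cannot be told apart.

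Each of the 4 kinases senses its own stress and phosphorylates the same serine of the alpha subunit of eIF2. GCN2 responds to uncharged tRNA and stalled ribosomes, PERK to unfolded protein in the endoplasmic reticulum, PKR to double-stranded RNA, and HRI to haem shortage and mitochondrial stress. Phosphorylated eIF2 blocks its exchange factor eIF2B, which lowers general translation while favouring that of a few mRNAs such as Atf4. PPP1R15A, itself a stress-induced protein, and PPP1R15B, present without stress, bring protein phosphatase 1 to eIF2α and so end the signal. IMPACT competes with GCN2 for binding to GCN1, and its gene is imprinted in the mouse. The values here are mRNA levels, so neither kinase activity nor eIF2α phosphorylation was measured.

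On build GRCm38, the kinase genes lie on chromosome 5 (Eif2ak1, 143817788 to 143904251), chromosome 17 (Eif2ak2, 78852564 to 78882573), chromosome 6 (Eif2ak3, 70844515 to 70905245) and chromosome 2 (Eif2ak4, 118388618 to 118475234). Ppp1r15a lies on chromosome 7 (45522916 to 45526268) and Ppp1r15b on chromosome 1 (133131143 to 133139783). Promoter windows from RefSeq (GRCm38.p6), 250 bases before to 50 after a gene's start, were matched for Eif2ak1, Eif2ak2, Eif2ak3, Eif2ak4 (2 windows) and Ppp1r15a. They were searched on both strands for TGATGCAA and TGATGNAA, the core of the element bound by C/EBP-ATF dimers (the first is contained in the second), and for TGACGTCA, the cyclic AMP response element. Neither TGATGCAA, held by 0.895% of the 32851 windows in the table, nor TGATGNAA, held by 3.97%, was found in a window of these 5 genes. TGACGTCA, held by 1.79% of all windows, was found in that of Ppp1r15a, starting 12 bases before the gene start. It was found in no window of the other 4 genes, and Impact and Ppp1r15b were left out of the search. The bases before the start are shown for Ppp1r15a, whose change with starvation differed between the genotypes, with TGACGTCA in capitals. They are also shown for Eif2ak3, a kinase gene called with neither starvation in either genotype in the main fit. With the replicate number as a block, Eif2ak3 was called lower in Gcn Arg.
Ppp1r15a, chr7:45526269-45526518, minus strand, 5′ to 3′: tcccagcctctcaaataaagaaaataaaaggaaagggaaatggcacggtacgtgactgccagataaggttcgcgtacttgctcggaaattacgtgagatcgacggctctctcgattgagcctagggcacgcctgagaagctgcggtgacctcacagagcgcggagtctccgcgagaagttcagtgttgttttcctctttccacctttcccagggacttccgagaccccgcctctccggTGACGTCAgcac
Eif2ak3, chr6:70844265-70844514, plus strand, 5′ to 3′: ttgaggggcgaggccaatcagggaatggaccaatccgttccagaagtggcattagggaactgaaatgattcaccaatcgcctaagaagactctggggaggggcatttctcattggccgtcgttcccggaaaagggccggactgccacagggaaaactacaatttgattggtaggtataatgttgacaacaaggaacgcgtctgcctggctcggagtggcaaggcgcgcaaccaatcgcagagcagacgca

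Libraries held 14.8 to 38.8 M counts (M, mega). Levels are CPM, the counts per M counts of the library after scaling with TMM factors (trimmed mean of M values), and each ± after a level is an SD over 3 libraries. Counts per library ran from 88 for Eif2ak4 in Gcn to 13303 for Impact in Wt. The 7 pluripotency markers sought summed to 6003 to 8502 CPM per library, with none at 0 in all libraries of a group. The sum hides differences of single markers between the genotypes. Nanog stood at 310 ± 9.4 CPM in Wt Unstarved and 559 ± 35 in Gcn Unstarved, and Zfp42 at 831 ± 26 and 1163 ± 57. Pou5f1 stood at 2585 ± 212 and 2500 ± 14 in the same groups. Fibroblast markers (7 sought) summed to 16.3 to 29.1 CPM in the Wt libraries and 7.97 to 11.6 CPM in Gcn, with 1 of them at 0 in both unstarved groups. They did not all differ alike. Col1a1 stood at 8.20 ± 1.3 CPM in Wt Unstarved and 1.76 ± 0.20 in Gcn Unstarved, and Thy1 at 3.95 ± 0.27 and 4.31 ± 1.1. Primed and lineage markers (7 sought) summed to 40.4 to 62.6 CPM in Wt and 49.2 to 117 CPM in Gcn, highest in Gcn Arg. Most of the Gcn Arg sum was Otx2 (83.0 ± 13 CPM, against 31.3 ± 4.0 in Wt Arg). T went the other way (0.26 ± 0.17 in Gcn Arg and 3.41 ± 1.3 in Wt Arg). The part of fibroblast, primed or lineage cells in the results was not tested. In bulk RNA, fewer cells of a type and less RNA per cell cannot be told apart. Gcn Unstarved 1, Gcn Arg 1 and Gcn Leu 1 lay away from the other Gcn libraries on the second principal component (22.7 to 27.8, against -17.9 to -5.97 for the other 6), which carried 19.6% of the variance. Calls that change without those 3 libraries are given beside their values.

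Impact and the phosphatase subunit Ppp1r15b were the most abundant of the 7 transcripts per exon length, and Eif2ak1 was the most abundant kinase transcript. On the scale of CPM per kb of annotated exon, Wt Unstarved levels were 47.4 ± 7.3 for Impact, 42.4 ± 2.7 for Ppp1r15b, 18.6 ± 1.0 for Eif2ak1, 12.7 ± 1.1 for Ppp1r15a, 8.70 ± 0.62 for Eif2ak3, 4.26 ± 0.26 for Eif2ak4 and 3.57 ± 0.40 for Eif2ak2. Impact and Ppp1r15b overlapped there, and Eif2ak2 lay below Eif2ak4 in each Wt Unstarved library but not in each starved Wt library. Of the summed kinase level per kb in Wt Unstarved, Eif2ak1 made up 53.0% ± 1.05, Eif2ak3 24.7% ± 1.20, Eif2ak4 12.1% ± 0.89 and Eif2ak2 10.2% ± 1.29. In Gcn Unstarved the shares were 57.1% ± 0.71, 27.6% ± 0.53, 2.21% ± 0.31 and 13.1% ± 0.81 in the same order. The summed level itself was 35.2 ± 1.3 CPM per kb in Wt Unstarved and 31.7 ± 1.5 in Gcn Unstarved. The sum and the shares include Eif2ak4, the altered gene, which stood at 0.701 ± 0.117 CPM per kb in Gcn Unstarved. Neither can therefore show whether the other kinase transcripts changed. Those stood at 18.1 ± 0.88 (Eif2ak1), 8.76 ± 0.57 (Eif2ak3) and 4.16 ± 0.13 (Eif2ak2) CPM per kb in Gcn Unstarved. With starvation the sum stood at 32.3 ± 1.3 (Wt Arg), 31.2 ± 0.58 (Wt Leu), 26.3 ± 1.8 (Gcn Arg) and 27.3 ± 0.74 (Gcn Leu) CPM per kb. The share of Eif2ak1 was lower in each starved group than in its control, at 46.9% ± 0.07 and 45.7% ± 0.90 in Wt Arg and Leu and 49.5% ± 3.72 and 47.7% ± 2.51 in Gcn Arg and Leu, with no overlap with the unstarved libraries of the same genotype. These shares are a description of transcript levels per exon length, with no test.

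**Figure D1:**
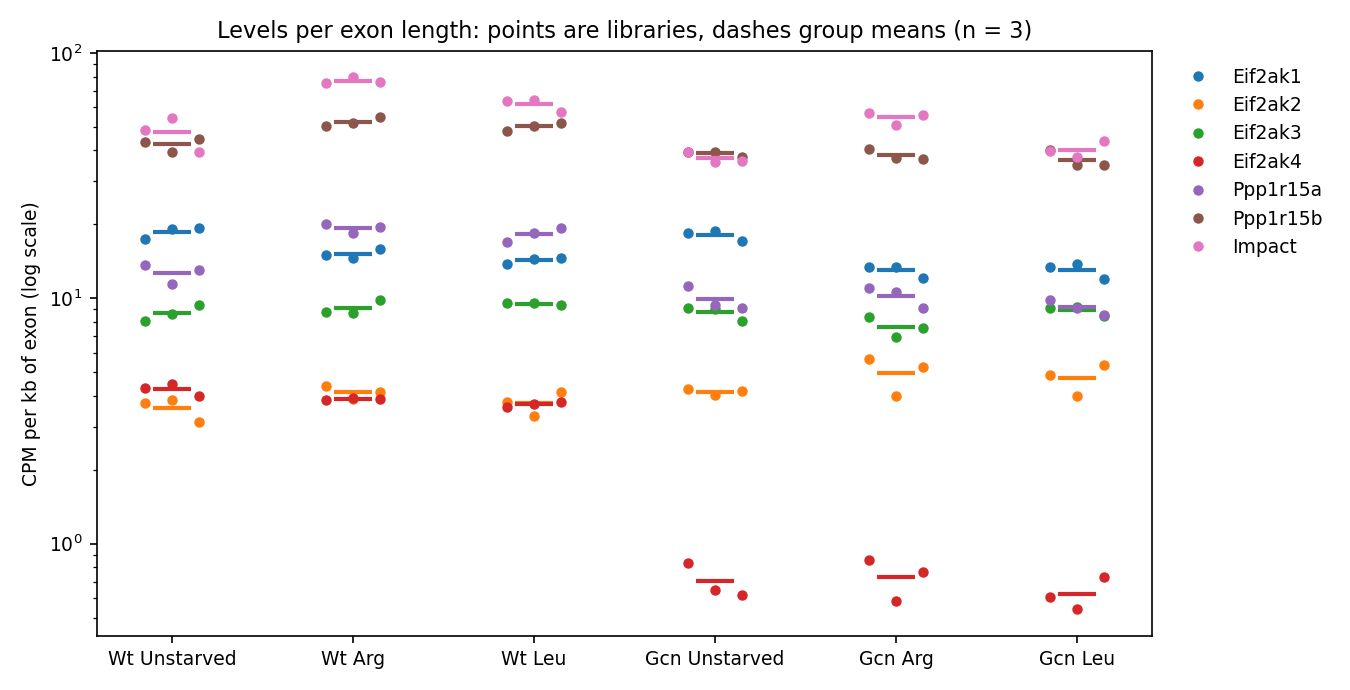
Levels of the 7 transcripts in each group on a log scale, in CPM per kb of annotated exon; points are the 3 libraries of a group and dashes their means. Eif2ak4 lies near 4 CPM per kb in the Wt groups and below 1 in the Gcn groups, while Impact and Ppp1r15b lie highest in every group.

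A gene was called where edgeR's quasi-likelihood test gave an adjusted p under 0.05, and each ± after a log2 fold change is an SE. With arginine starvation in Wt, 4 of the 7 genes were called (Ppp1r15a, Ppp1r15b and Impact higher, Eif2ak1 lower), where 40.9% of all 16140 tested genes were called (20.9% higher and 20% lower). With leucine starvation in Wt, 5 of 7 were called (the same 3 higher, Eif2ak1 and Eif2ak4 lower), against 29.6% of all genes (15.5% higher and 14.1% lower). In Gcn, arginine starvation called 2 of 7 (Impact higher, Eif2ak1 lower), against 28% of 16369 genes (14.3% higher and 13.7% lower). Leucine starvation in Gcn called 1 of 7 (Eif2ak1 lower), against 21.8% (11.7% higher and 10% lower). The median log2 fold change of the 7 genes was 0.21, 0.13, 0.06 and -0.08 in these 4 comparisons, where that of all tested genes lay between -0.01 and 0.01. The spread between libraries was wider in the Gcn fit (median biological coefficient of variation 0.109, against 0.0749 in Wt), so a change of a given size passed the test less readily there. With backgrounds of this size the number of calls is no result about these genes, and each gene was read from its own values.

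Eif2ak4 transcripts checked the labels. Counts were 575 to 961 in the 9 Wt libraries and 88 to 215 in the 9 Gcn libraries. In Wt Unstarved it stood at 32.2, 33.4 and 29.7 CPM, in Wt Arg at 28.7, 29.2 and 29.0, and in Wt Leu at 27.0, 27.6 and 28.1. The 3 Wt groups did not overlap, and their order ran from unstarved to arginine to leucine starvation. The gaps were narrow, and Wt Leu was not called against Wt Arg (-0.07 ± 0.07, adjusted p = 0.593). In Gcn it stood at 6.23, 4.84 and 4.62 CPM (Unstarved), 6.37, 4.35 and 5.70 (Arg) and 4.50, 4.04 and 5.44 (Leu), and these groups overlapped. Every Gcn library lay below every Wt library, with a log2 fold change of -2.61 ± 0.13 between the unstarved groups (6.10-fold lower, adjusted p = 1.73e-12), -2.41 ± 0.13 in Arg (5.31-fold, adjusted p = 5.04e-12) and -2.56 ± 0.13 in Leu (5.88-fold, adjusted p = 1.42e-12). A gene-level count holds reads of all exons, so reads of an altered transcript cannot be told apart from those of an intact one. The fall of Eif2ak4 with leucine starvation in Wt was small (-0.21 ± 0.07, adjusted p = 0.0341). It was not called without Wt Unstarved 1 or 2 or without any single one of Wt Leu 1, 2 and 3 (highest adjusted p = 0.102), with library size in place of TMM (0.0616), with no filter on low counts (0.0861), or with another set of groups in the fit (0.0650 with the compared groups, 0.209 with all 6). With arginine it was not called (-0.13 ± 0.07, adjusted p = 0.135), nor in Gcn with either starvation (0.07 ± 0.18, adjusted p = 0.816 and -0.15 ± 0.18, adjusted p = 0.621), and the latter value was 0.03 without the 3 Gcn libraries numbered 1.

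Eif2ak1, the HRI kinase, was the one kinase transcript that fell with both starvations in both genotypes. It stood at 99.1, 108 and 110 CPM in Wt Unstarved, at 85.1, 82.6 and 89.7 in Wt Arg and at 78.1, 81.7 and 82.5 in Wt Leu. It stood at 104, 107 and 97.2 CPM in Gcn Unstarved, at 76.3, 75.9 and 68.6 in Gcn Arg and at 75.8, 77.9 and 67.7 in Gcn Leu. Every starved library lay below every unstarved one, and the starved Gcn libraries lay below the starved Wt libraries. The log2 fold changes were -0.30 ± 0.06 (Wt Arg, adjusted p = 0.000893), -0.39 ± 0.06 (Wt Leu, adjusted p = 0.000172), -0.47 ± 0.09 (Gcn Arg, adjusted p = 0.00101) and -0.47 ± 0.09 (Gcn Leu, adjusted p = 0.00154), that is 1.23- to 1.39-fold lower. All 4 calls held under every alternative run. The change in Gcn minus that in Wt was not called for arginine (-0.18, 95% interval -0.40 to 0.04, adjusted p = 0.408) or leucine (-0.09, -0.31 to 0.12, adjusted p = 0.763). Between genotypes Eif2ak1 was lower in Gcn Arg than in Wt Arg (-0.22 ± 0.07, adjusted p = 0.0264), a call lost with library size in place of TMM (-0.17, adjusted p = 0.0881) and without Wt Arg 1 (0.0552), Wt Arg 3 (0.103) or Gcn Arg 3 (0.125). It was not called between the unstarved groups (-0.04 ± 0.07, adjusted p = 0.735). Aimp2, a gene on the opposite strand, shares 487 bp of exon with Eif2ak1 (8.59% of its exons), and the strand setting of the counting is not given in the sources used here. Aimp2 itself stood at 102 ± 1.6 CPM in Wt Unstarved, 88.2 ± 3.7 in Wt Arg and 75.1 ± 2.5 in Wt Leu, and at 91.2 ± 5.9, 84.9 ± 7.7 and 79.5 ± 5.3 in the same Gcn groups, and its part in the Eif2ak1 values was not tested.

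The transcripts of the other kinases, Eif2ak2 and Eif2ak3, were not called with starvation in either genotype in the fit without a replicate term. Eif2ak2, the kinase of double-stranded RNA, stood at 19.2, 19.7 and 15.9 CPM in Wt Unstarved, 22.5, 19.9 and 21.2 in Wt Arg and 19.3, 17.0 and 21.3 in Wt Leu. In Gcn it stood at 21.9, 20.5 and 21.4 CPM (Unstarved), 28.9, 20.5 and 26.7 (Arg) and 24.8, 20.4 and 27.4 (Leu). The starved Gcn groups spread widely, their library 2 lying at the level of the unstarved libraries. The changes were 0.21 ± 0.10 (Wt Arg, adjusted p = 0.103), 0.06 ± 0.10 (Wt Leu, adjusted p = 0.705), 0.26 ± 0.14 (Gcn Arg, adjusted p = 0.178) and 0.20 ± 0.13 (Gcn Leu, adjusted p = 0.338). Same-numbered Gcn libraries deviated together, and with the replicate number as a block Eif2ak2 was called higher in Gcn Arg (0.25, adjusted p = 0.0290), as it was without Gcn Arg 2 (0.39, adjusted p = 0.0415). Between genotypes it was higher in Gcn Leu than in Wt Leu (0.34 ± 0.12, adjusted p = 0.0411). That call was lost without Wt Leu 1 (0.0843), Wt Leu 2 (0.196), Gcn Leu 1 (0.0837) or Gcn Leu 3 (0.207), and without the 3 Gcn libraries numbered 1 (adjusted p = 0.0551). In Arg the difference between genotypes was 0.26 ± 0.12 (adjusted p = 0.128), and it was called without Gcn Arg 2 (0.39, adjusted p = 0.0205).

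Eif2ak3, the kinase of the endoplasmic reticulum, stood at 48.9, 52.2 and 56.3 CPM in Wt Unstarved, 53.1, 52.4 and 59.3 in Wt Arg and 57.8, 57.4 and 56.5 in Wt Leu. In Gcn it stood at 54.8, 54.7 and 48.8 CPM (Unstarved), 50.7, 41.7 and 45.4 (Arg) and 55.0, 55.3 and 51.0 (Leu). Gcn Arg had its lowest group mean. The changes were 0.07 ± 0.07 (Wt Arg, adjusted p = 0.465), 0.13 ± 0.07 (Wt Leu, adjusted p = 0.196), -0.19 ± 0.09 (Gcn Arg, adjusted p = 0.134) and 0.03 ± 0.09 (Gcn Leu, adjusted p = 0.843). With the replicate block it was called lower in Gcn Arg (-0.20, adjusted p = 0.0280). Gcn Arg lay below Wt Arg without overlap (-0.26 ± 0.08, adjusted p = 0.0210), a call lost with library size in place of TMM (-0.20, adjusted p = 0.0640) and without Wt Arg 3, Gcn Arg 2 or Gcn Arg 3 (0.0551 to 0.118). The interaction with arginine was not called (-0.27, 95% interval -0.51 to -0.02, adjusted p = 0.247), and was called with the replicate block (-0.27, adjusted p = 0.0385).

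**Figure D2:**
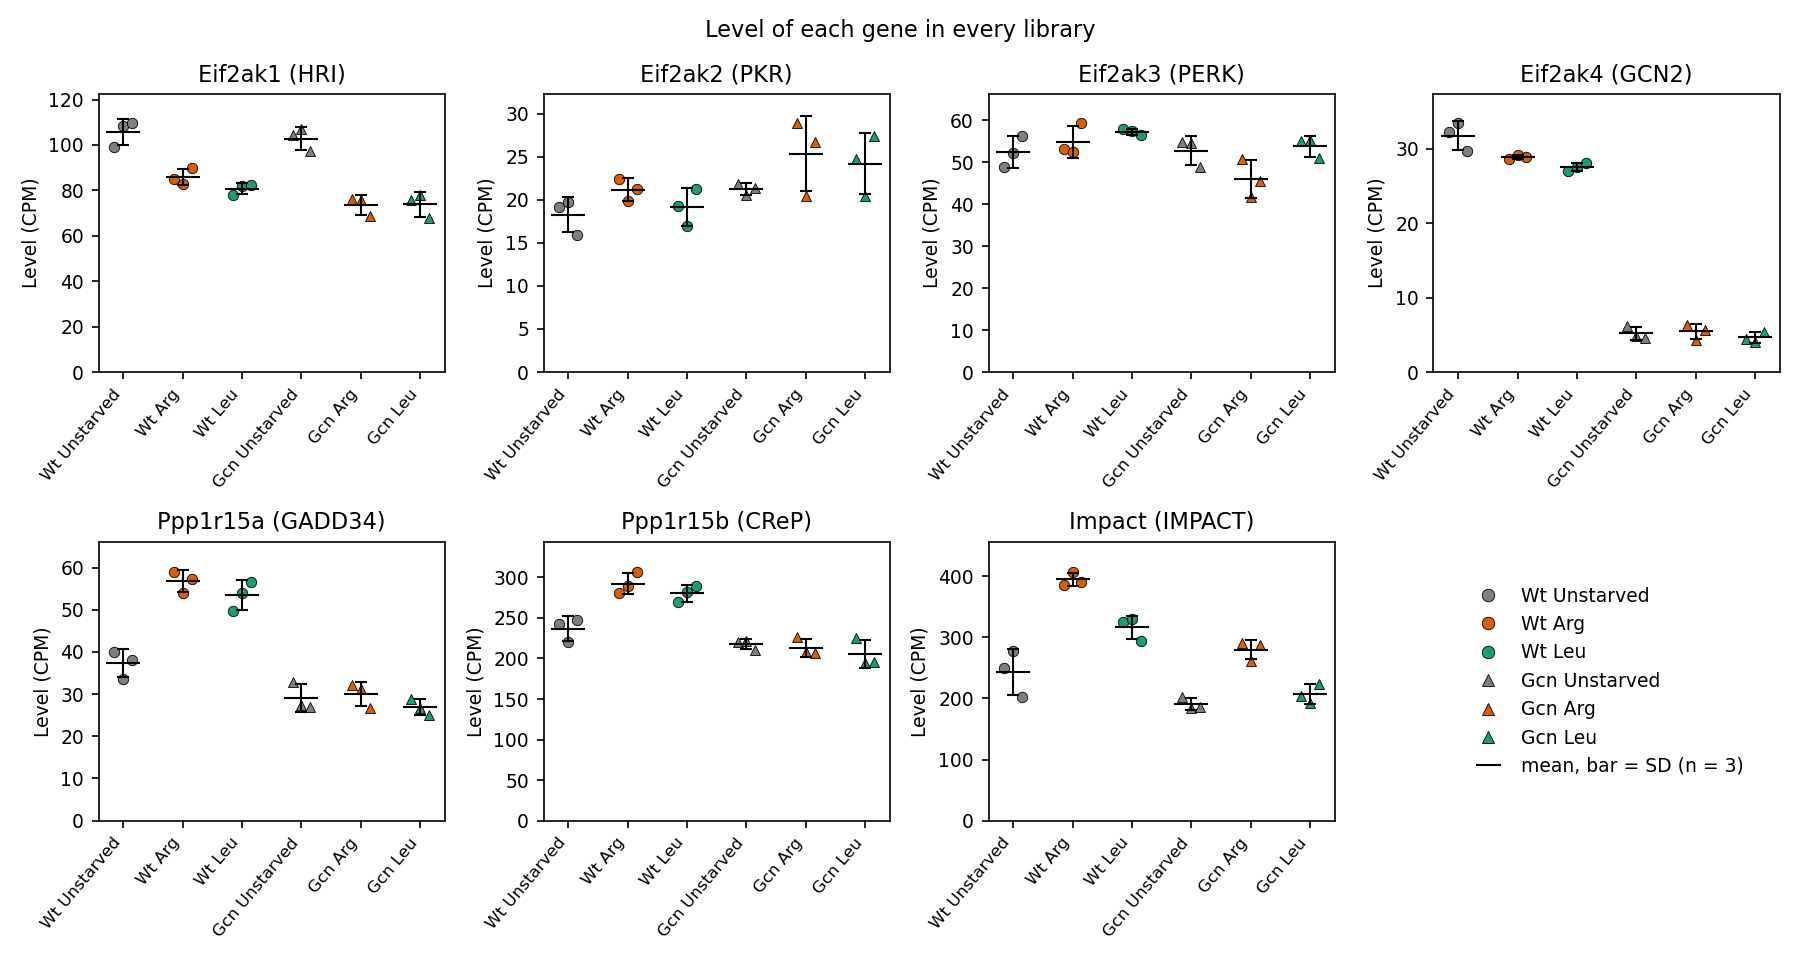
CPM of each of the 7 genes in every library (points), with group means and SD bars (n = 3), circles for Wt and triangles for Gcn. Ppp1r15a and Ppp1r15b are higher in starved than unstarved Wt libraries and overlap between the Gcn groups, and Eif2ak1 is lower in every starved library.

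Ppp1r15a, encoding GADD34, rose with both starvations in Wt and was called with neither in Gcn. It stood at 40.0, 33.7 and 38.2 CPM in Wt Unstarved, at 59.0, 54.0 and 57.4 in Wt Arg and at 49.6, 53.9 and 56.7 in Wt Leu. Every starved Wt library lay above every unstarved one, and the starved groups overlapped each other. The rise was 1.52-fold with arginine starvation (log2 0.61 ± 0.08, adjusted p = 8.28e-06) and 1.43-fold with leucine starvation (0.51 ± 0.08, adjusted p = 9.05e-05), and both calls held under every alternative run. In Gcn it stood at 33.0, 27.5 and 26.9 CPM (Unstarved), 32.2, 31.2 and 26.8 (Arg) and 29.0, 26.8 and 25.1 (Leu). These 3 groups overlapped, and the changes were 0.06 ± 0.11 (95% interval -0.17 to 0.28, adjusted p = 0.734) and -0.10 ± 0.10 (-0.33 to 0.12, adjusted p = 0.537). Both intervals lie below the corresponding intervals in Wt, 0.45 to 0.77 and 0.35 to 0.67.

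The difference in the response of Ppp1r15a was tested directly as an interaction, in which the Wt change is taken from the Gcn change. It was -0.55 ± 0.14 for arginine (95% interval -0.83 to -0.27, adjusted p = 0.0290) and -0.63 ± 0.13 for leucine (-0.91 to -0.35, adjusted p = 0.0237). In the fit without a replicate term Ppp1r15a was the only 1 of the 7 genes called in either interaction, where 2.3% (arginine, 0.62% higher and 1.68% lower) and 0.821% (leucine, 0.154% higher and 0.668% lower) of 16924 genes were called. The replicate block holds terms for the number in both genotypes. It thus pairs Wt Unstarved too, though the numbers were read as pairing the Gcn libraries but not Wt Unstarved. With this block, 3 of 7 were called in each interaction. Ppp1r15a was called in both, and so was Ppp1r15b (adjusted p = 0.00184 for arginine and 0.00297 for leucine). Beside them stood Eif2ak3 for arginine (-0.27, adjusted p = 0.0385) and Impact for leucine (-0.27, adjusted p = 0.0423). Without the block, the adjusted p-values of Ppp1r15a lie close to the threshold. Leaving out 1 library ended the arginine call for Wt Arg 1, 2 or 3, Wt Unstarved 2 or 3, Gcn Unstarved 1 or 2, or Gcn Arg 2 or 3 (-0.59 to -0.46, highest adjusted p = 0.0964), and library size in place of TMM also ended it (-0.46, adjusted p = 0.0674). The leucine call was lost without Wt Unstarved 2 or 3, Wt Leu 2 or 3, Gcn Unstarved 1 or Gcn Leu 2 (-0.65 to -0.53, highest adjusted p = 0.0845). Without all 3 Gcn libraries numbered 1, both were called (-0.49, adjusted p = 0.0421 and -0.57, adjusted p = 0.0353).

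Ppp1r15a was also lower in Gcn than in Wt at each condition. The difference was -0.36 ± 0.10 between the unstarved groups (1.28-fold lower, adjusted p = 0.00581), -0.91 ± 0.10 in Arg (1.88-fold, adjusted p = 1.36e-07) and -0.99 ± 0.10 in Leu (1.98-fold, adjusted p = 3.84e-08). In each condition the 3 Gcn libraries lay below the 3 Wt libraries, by the narrowest margin without starvation (33.0 CPM in Gcn Unstarved 1 and 33.7 CPM in Wt Unstarved 2). A GC correction together with the replicate block put the unstarved difference at -0.23.

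Ppp1r15b, encoding CReP, rose with both starvations in Wt, as Ppp1r15a did, and was called with neither in Gcn. It stood at 243, 220 and 248 CPM in Wt Unstarved, at 281, 290 and 307 in Wt Arg and at 269, 282 and 290 in Wt Leu, so that each starved library lay above each unstarved one. The rise was 0.30 ± 0.06 (1.24-fold, adjusted p = 0.000793) with arginine starvation and 0.24 ± 0.06 (1.18-fold, adjusted p = 0.00717) with leucine starvation. In Gcn it stood at 221, 221 and 211 CPM (Unstarved), 226, 207 and 207 (Arg) and 225, 195 and 196 (Leu). These groups overlapped, with changes of -0.02 ± 0.08 (95% interval -0.20 to 0.16, adjusted p = 0.888) and -0.08 ± 0.08 (-0.25 to 0.10, adjusted p = 0.554), which turned to 0.10 and 0.01 with library size in place of TMM. The interaction was -0.33 ± 0.10 for both amino acids (adjusted p = 0.0973 for arginine and 0.148 for leucine), and it was called by DESeq2 (-0.33 for both, adjusted p = 0.0275 and 0.0491), as it was under the replicate block (0.00184 and 0.00297). Ppp1r15b was not called between the unstarved genotypes (-0.12 ± 0.07, adjusted p = 0.215). It was lower in Gcn in Arg (-0.45 ± 0.07, adjusted p = 4.99e-05) and in Leu (-0.45 ± 0.07, adjusted p = 5.53e-05), with no overlap between the genotypes in either.

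On the scale of CPM per kb, Ppp1r15b stood 3.34 ± 0.13 times as high as Ppp1r15a in Wt Unstarved, 2.71 ± 0.18 times in Wt Arg and 2.76 ± 0.08 times in Wt Leu. In Gcn the ratio was 3.95 ± 0.38, 3.74 ± 0.28 and 3.99 ± 0.16 in Unstarved, Arg and Leu. The starved Wt libraries (2.50 to 2.85) lay below all others (3.19 to 4.23). The summed level of both subunits per kb was 55.1 ± 3.7 in Wt Unstarved, 71.6 ± 2.4 in Wt Arg and 68.3 ± 3.0 in Wt Leu, and 48.8 ± 1.9, 48.4 ± 2.7 and 45.8 ± 3.7 in the same Gcn groups. Of the summed level, most was Ppp1r15b in every library, as the ratios show.

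Impact, the GCN2 inhibitor, rose with arginine starvation in both genotypes, and with leucine starvation it was called in Wt. The gene lies on chromosome 18 (12955852 to 12992950, build GRCm38). It stood at 249, 277 and 203 CPM in Wt Unstarved, at 387, 407 and 391 in Wt Arg and at 325, 329 and 295 in Wt Leu. In Gcn it stood at 202, 185 and 186 CPM (Unstarved), 292, 261 and 287 (Arg) and 203, 192 and 224 (Leu). The arginine-starved libraries lay above the other libraries of their genotype, and Gcn Leu overlapped Gcn Unstarved. With arginine starvation Impact was 1.63-fold higher in Wt (0.70 ± 0.09, adjusted p = 1.92e-05) and 1.48-fold higher in Gcn (0.56 ± 0.09, adjusted p = 0.000411). With leucine starvation it was higher in Wt (log2 0.38 ± 0.09, adjusted p = 0.00485) and not called in Gcn (0.12 ± 0.09, 95% interval -0.07 to 0.32, adjusted p = 0.368). The interactions were not called (-0.15, 95% interval -0.41 to 0.12, adjusted p = 0.636 for arginine and -0.26, -0.53 to 0.0032, adjusted p = 0.376 for leucine), though with the replicate block the leucine interaction was called (adjusted p = 0.0423).

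Impact was also the only 1 of the 7 genes called between the starvations, where 10% of all genes were called in Wt (5.25% higher and 4.76% lower) and 8.52% in Gcn (4.64% higher and 3.88% lower). Leucine minus arginine starvation was -0.32 ± 0.09 in Wt (adjusted p = 0.0320) and -0.44 ± 0.09 in Gcn (adjusted p = 0.00811). In both genotypes all 3 Leu libraries lay below all 3 Arg libraries. The Wt call was lost on leaving out any single library of Wt Arg or Wt Leu (-0.35 to -0.28, highest adjusted p = 0.121), and the Gcn call held without each single library of Gcn Arg or Gcn Leu. With the replicate block 3328 genes were called in Wt and 4362 in Gcn, in place of 1615 and 1395, and Eif2ak3 was called higher in Gcn Leu than in Gcn Arg (0.23, adjusted p = 0.0191, against 0.154 without it).

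Between genotypes, Impact was lower in Gcn in each condition, by -0.35 ± 0.09 (1.28-fold, adjusted p = 0.00495), -0.50 ± 0.09 (1.41-fold, adjusted p = 0.000214) and -0.62 ± 0.09 (1.53-fold, adjusted p = 1.89e-05) in Unstarved, Arg and Leu. A GC correction together with the replicate block put the unstarved difference of Impact at -0.54. The genotypes did not overlap in any condition, though Wt Unstarved 3 (203 CPM) lay next to Gcn Unstarved 1 (202 CPM). In all, 3 of the 7 genes were called between the unstarved genotypes (Eif2ak4, Ppp1r15a and Impact, all lower in Gcn), where 32.8% of 16924 genes were called (16.6% higher and 16.2% lower). In Arg 6 of 7 were called, all lower in Gcn, against 31.5% of all genes (14.8% higher and 16.7% lower). That count was 4 to 6 on leaving out 1 library and 4 with library size in place of TMM. In Leu 5 of 7 were called (4 lower and Eif2ak2 higher), against 31.1% (14.4% higher and 16.7% lower). Eif2ak4, the altered gene, is among those called lower in each condition, so these counts are no result about the 7 genes. Per kb, Impact stood 11.1 ± 1.1 times as high as Eif2ak4 in Wt Unstarved, 19.9 ± 0.39 times in Wt Arg and 16.7 ± 1.3 times in Wt Leu. In the Gcn libraries the ratio lay between 47.1 and 87.5. Its denominator there is the altered gene, so the ratio shows no rise of Impact, which was lower in Gcn.

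**Figure D3:**
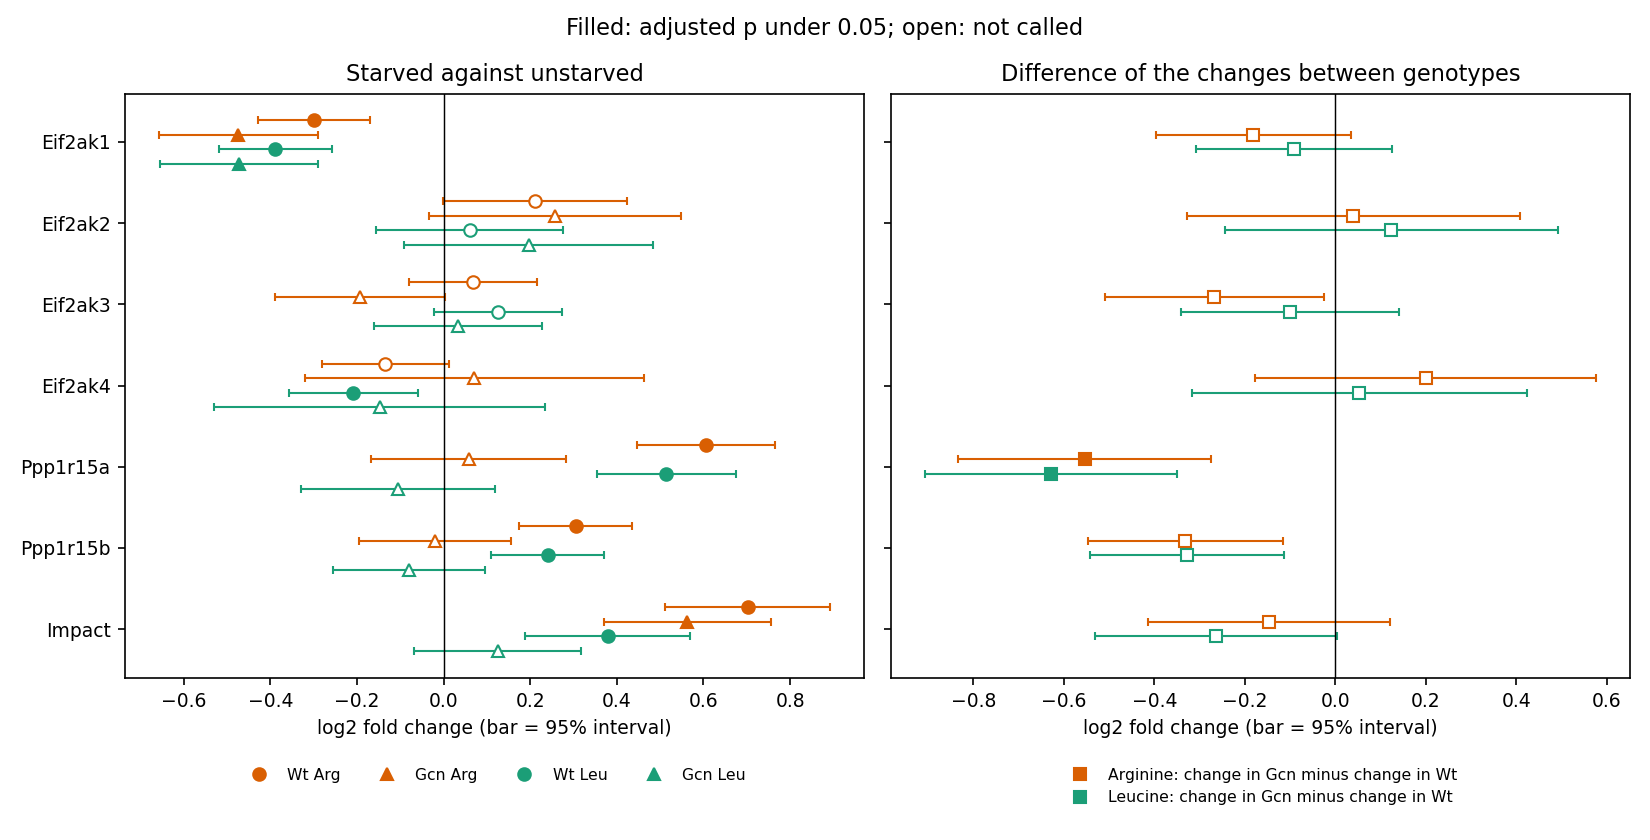
Log2 fold changes with 95% intervals, starved against unstarved in each genotype (left) and the change in Gcn minus that in Wt (right); filled symbols have an adjusted p under 0.05. Ppp1r15a alone has filled symbols on the right, at -0.55 and -0.63, and Eif2ak1 has 4 filled symbols below 0 on the left.

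The other 25 genes of the pathway, listed by role, gave 8 higher and 5 lower calls with arginine starvation in Wt, 5 and 5 with leucine in Wt, 2 and 6 with arginine in Gcn and 0 and 4 with leucine in Gcn. These are 13, 10, 8 and 4 of 25 genes, where 40.9%, 29.6%, 28% and 21.8% of all genes were called, so the counts are no result about the list. Their median log2 fold changes were -0.08, -0.07, -0.15 and -0.06. Of the targets Atf4, Ddit3 (CHOP) and the pseudokinase Trib3, Ddit3 had the largest change of the list with both starvations in Wt and Trib3 with both in Gcn, and with arginine starvation all 3 rose in Wt and fell in Gcn. Ddit3 changed by 2.04 ± 0.16 in Wt Arg and 2.81 ± 0.16 in Wt Leu, by -0.81 ± 0.15 in Gcn Arg (adjusted p = 0.00143), and was not called in Gcn Leu (0.21 ± 0.15, adjusted p = 0.346). Atf4, whose mRNA is translated when eIF2α is phosphorylated, rose in both starved Wt groups (0.44 and 0.61) and fell in both starved Gcn groups (-0.58 and -0.29), and Trib3 did the same (1.54 and 1.22, against -1.77 and -1.91). The interactions called 4 (arginine) and 3 (leucine) genes of the list, all with a negative difference, these targets and for arginine Eif2s3y (-0.43 ± 0.11, adjusted p = 0.0459). Of all genes 2.3% and 0.821% were called there, and most of those differences were negative too (285 of 390 and 113 of 139).

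Among the 10 activators and modulators of the kinases, Hspa5 (BiP), the chaperone that holds PERK inactive, fell in all 4 comparisons, from 530 ± 2.3 to 427 ± 34 CPM in Wt Arg and from 766 ± 51 to 427 ± 75 CPM in Gcn Arg. Its log2 changes were -0.31 (Wt Arg), -0.32 (Wt Leu), -0.83 (Gcn Arg) and -0.87 (Gcn Leu). Dnajc3 (p58IPK), a chaperone also described as an inhibitor of PKR and PERK, rose in Wt (0.42 and 0.24). It was called with neither starvation in Gcn (0.13 and -0.20), and none of these 10 genes was called in either interaction. Oma1 and Dele1 are the mitochondrial protease and the relay protein that link mitochondrial stress to HRI. Both were called higher with arginine starvation in both genotypes (Oma1 0.44 and 0.56, Dele1 0.22 and 0.39) and with leucine starvation in neither. Leucine against arginine starvation was called lower for Oma1 (-0.45, adjusted p = 0.0495 in Wt and -0.61, adjusted p = 0.00394 in Gcn). For Dele1 that comparison was called in neither genotype (-0.11, adjusted p = 0.435 and -0.22, adjusted p = 0.287). Gcn1 (tested under its older symbol Gcn1l1), the partner for which IMPACT competes, was not called with starvation (0.01, -0.03, -0.12 and -0.20) but was lower in Gcn than in Wt in Arg (-0.25, adjusted p = 0.0402) and Leu (-0.28, adjusted p = 0.0195).

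Among the 4 genes of eIF2 subunits, Eif2s1, the gene of eIF2α itself, was called in none of the 4 starvation comparisons (-0.04, 0.12, -0.32 and -0.09). Eif2s2, the beta subunit, fell in Gcn Arg (-0.54, adjusted p = 0.00666) and Gcn Leu (-0.55, adjusted p = 0.00778). In Wt it was not called (-0.11, adjusted p = 0.187 and -0.15, adjusted p = 0.105), nor was it called in either interaction. Of the 5 eIF2B subunits, Eif2b4 fell in both starved Wt groups (-0.27, adjusted p = 0.00282 and -0.18, adjusted p = 0.0494). Eif2b3 rose in Wt Arg (0.18, adjusted p = 0.0428). None of the 5 was called with starvation in Gcn, and none in either interaction. Single pathway genes were read from the main fit alone, so calls this close to the threshold were not followed through the alternatives. Of the 3 catalytic subunits of protein phosphatase 1, which PPP1R15A and PPP1R15B direct to eIF2α, Ppp1ca fell in both starved Wt groups (-0.22 and -0.17). None of the 3 was called with starvation in Gcn, and none in either interaction. Between the unstarved genotypes 4 of the 25 were higher in Gcn and 0 lower, where edgeR called 32.8% of all genes. They were Ddit3 (0.87), Dnajc3 (0.70), Hspa5 (0.53) and Eif2s3y (0.51).

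**Figure D4:**
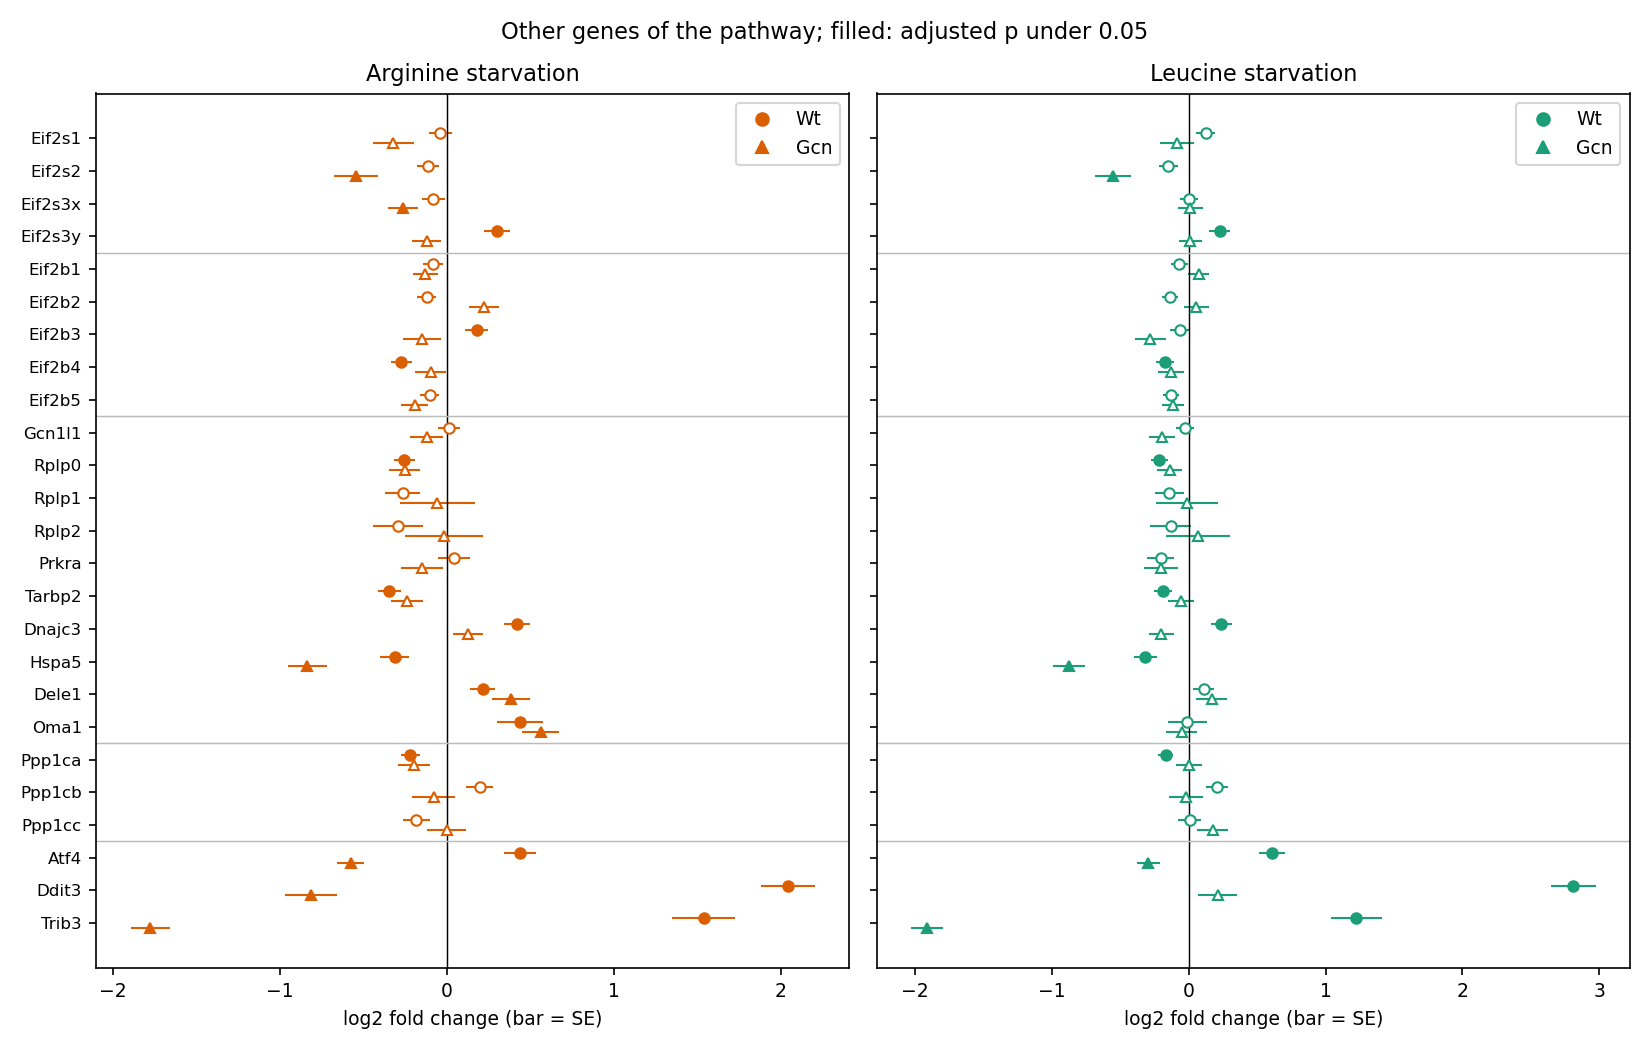
Log2 fold changes with SE bars for the other 25 genes of the pathway, with arginine starvation (left) and leucine starvation (right), circles for Wt and triangles for Gcn; filled symbols have an adjusted p under 0.05. Ddit3 and Trib3 lie furthest from 0, with Trib3 at 1.54 and 1.22 in Wt and at -1.77 and -1.91 in Gcn.

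For each of the 7 genes, the tested genes of at least 5 CPM (10455) were ordered by Pearson's r of log2 CPM over the 18 libraries. The closest to Ppp1r15a was Shmt2, mitochondrial serine hydroxymethyltransferase (r = 0.986), followed by Pck2 (0.977) and Mthfd2 (0.976). Shmt2 was also the closest to Ppp1r15b (0.978), before Kdm4a (0.977) and Slc1a4 (0.975). Impact followed another pattern, with Nr2c1 (0.970), Mbip (0.954) and Zfp867 (0.941). For the kinases the closest were Ppard (0.963), Bcl3 (0.962) and Slc2a1 (0.958) to Eif2ak1, Mis12 (0.910), Zranb3 (0.910) and Ap4e1 (0.909) to Eif2ak2, and Ccni (0.856), Atf6 (0.848) and Ldlrad3 (0.844) to Eif2ak3. The closest to Eif2ak4, the gene altered in Gcn, were Car4 (0.990), Krt18 (0.990) and Grb10 (0.988). The libraries share groups of 3, so these r values describe patterns over 6 group means and carry no test.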

How the data were processed

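RNA from E14 mouse embryonic stem cells (18 libraries, 6 groups of 3) was made into directional poly(A) libraries and read as read pairs on 1 sequencing kit, per the labels. The submitters' processing notes name build GRCm38, the aligner STAR 2.7.4a, the counter HTSeq, and DESeq2 under R 4.0.3. Aligner settings, annotation release and strand setting were not given in the sources used here. The authors deposited raw counts per Ensembl gene, 1 table per genotype, which entered every test. A normalized signal per gene, which the authors deposited as well, equals the count over 1 size factor per library and entered no test.

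Of 55471 identifiers, 55144 matched a GENCODE vM21 symbol, and no entry named anything but a gene. Samples were grouped by their titles. Tests ran in R 4.3.3 with edgeR 4.0.16: filterByExpr, TMM, robust quasi-likelihood F test and Benjamini-Hochberg adjustment over all tested genes. Comparisons within a genotype used its 9 libraries (16140 genes in Wt, 16369 in Gcn), and those across genotypes all 18 (16924). Each SE was obtained from the F statistic (absolute log2 change over its root), and 95% intervals use the t quantile at the total degrees of freedom. Levels per kb use the union of annotated exons. The 7 genes, the lists of pathway and marker genes, and the tests were chosen with earlier results of these data known. Named besides the 7 are genes of the pathway list, with counts over the whole list, and the 3 genes closest to each by Pearson's r (log2 CPM, prior count 2, mean of at least 5 CPM). The fit was tested on simulated data.

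The pairing of same-numbered libraries was read from the data, as the labels give only the number. Their deviations from the group means correlated by 0.180 to 0.485 in Gcn (9 of 9 pairs over 0.1). Between Wt Arg and Wt Leu they correlated by 0.166 to 0.285, and the number was read as a pairing in these groups. The main tests used group means only and took no account of the pairing, which entered only the replicate block among the alternatives. Wt Unstarved with the starved Wt groups (r 0.0490 to 0.201) and the genotypes with each other (4 of 27 pairs over 0.1) were not read as paired. That reading is uncertain, as 9 of 9 pairs in Wt and 7 of 9 in Gcn correlated best with their own number. Replicates differed by more than sampling noise in every group (chi-square per degree of freedom 7.46 to 35.6). Alternatives were DESeq2 1.42.0, limma-voom, library size in place of TMM, DESeq2 size factors, no filter, a replicate block with and without a GC correction, other sets of groups in the fit, leaving out each library and leaving out the 3 Gcn libraries numbered 1.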

Additional observations from a re-analysis of the deposited data

Results flagged for a closer look

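The change with starvation differed between the genotypes by the test of the interaction (change in Gcn minus change in Wt, edgeR) for Ppp1r15a, with arginine (-0.55, adjusted p = 0.0290) and leucine (-0.63, adjusted p = 0.0237). In 10 of 21 alternative runs for arginine and 6 of 21 for leucine the call was lost. Ppp1r15a was lower in Gcn than in Wt in 3 of 3 libraries with each starvation and also without starvation. That separation therefore does not bear on the difference between the changes. Among the other genes of the pathway the change with starvation differed for Atf4 (-1.02, adjusted p = 4.99e-05 for arginine and -0.91, adjusted p = 0.000344 for leucine). It differed too for Ddit3 (-2.87, adjusted p = 2.80e-07 and -2.61, adjusted p = 8.85e-07) and Trib3 (-3.32, adjusted p = 5.88e-08 and -3.15, adjusted p = 1.19e-07). It also differed for Eif2s3y, a copy of the eIF2 gamma subunit, with arginine (-0.43, adjusted p = 0.0459). Groups of 3 libraries are too small for a test of single libraries that stand apart.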

How the results depend on the processing

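Of the single values of the 7 genes, 1156 kept their direction and their side of the threshold, 44 lost and 28 gained a call, and 32 changed sign, none of them called. With the replicate block, 7602 genes were called in Gcn Arg, 6651 in Gcn Leu, 4362 between Gcn Leu and Gcn Arg, 3328 between Wt Leu and Wt Arg, and 2505 and 1878 in the arginine and leucine interactions, and 4, 2, 3 and 3 of the 7 genes in Gcn Arg, Gcn Leu against Gcn Arg and the 2 interactions. With the block and a GC correction the gene counts were 8115, 7292, 5069, 3278, 2393 and 1869 in the same order, and 8034 and 8057 between the genotypes in Arg and Leu, with 4, 3, 3, 4 and 2 of the 7 genes in Gcn Arg, Gcn Leu, Gcn Leu against Gcn Arg and the 2 interactions. In groups not read as paired the block called Ppp1r15b in both interactions (adjusted p = 0.00184 and 0.00297) and between unstarved genotypes (0.0428). It called Eif2ak3 in the arginine interaction (0.0385) and Impact in the leucine interaction (0.0423). It also called Eif2ak2 in Gcn Arg against Wt Arg (0.0322) and Eif2ak1 in Gcn Leu against Wt Leu (0.0253). It changed no other call of the 7 genes beside those given with the results. The GC correction on top called Eif2ak1 in the arginine interaction (0.0391), Eif2ak3 in Wt Leu (0.0413), Eif2ak2 and Impact in Gcn Leu (0.0272 and 0.0222) and Ppp1r15a in Gcn Leu against Gcn Arg (0.0240). As a hint from the data, 9 of 9 same-numbered pairs in Wt and 7 of 9 in Gcn correlated best with their own number. Between genotypes 5 of 27 did.

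DESeq2 called 781 and 377 genes and 2 and 2 of the 7 in the interactions, no filter called 777 and 353 genes, and library size called 0 of the 7 for arginine. With all 6 groups in the fit, 916 genes were called between Wt Leu and Wt Arg and 2344 between Gcn Leu and Gcn Arg. Leaving out 1 library gave 871 to 1258 and 710 to 1082 genes there, with 0 of the 7 between Wt Leu and Wt Arg, 2171 to 3163 in Gcn Leu, 187 to 525 and 74 to 257 in the interactions, and 0 to 1 of the 7 in each interaction.

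With library size in place of TMM, the median of all genes in Gcn Arg was 0.11 in place of -0.01. Calls then split into 3449 higher and 1397 lower in Gcn Arg (2339 and 2244 with TMM), 2609 and 1066 in Gcn Leu (1920 and 1641), 3125 and 2362 in Gcn Arg against Wt Arg (2500 and 2830), and 298 and 162, and 80 and 77, in the interactions (105 and 285, 26 and 113).

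None of the values that changed sign was called with TMM. For Eif2ak1 between Gcn Leu and Gcn Arg they were -0.0041 (DESeq2), -0.00034 (limma-voom), -0.033 (library size), -0.0034 (DESeq2 size factors), -0.00028 (block with GC correction) and -0.010 (compared groups alone), and -0.053 to 0.049 without 1 library. Library size gave 0.098 and 0.0051 for Ppp1r15b in Gcn Arg and Leu and -0.026 for Eif2ak3 between unstarved genotypes. The block with GC correction gave -0.029 for Eif2ak2 in Wt Leu and -0.0054 for Eif2ak3 in Gcn Leu. Without the 3 Gcn libraries numbered 1, Eif2ak4 in Gcn Leu was 0.030, Eif2ak2 0.040 between Gcn Leu and Gcn Arg and -0.036 in the arginine interaction, and Eif2ak3 -0.023 between unstarved genotypes. Leaving out 1 library at a time gave ranges across 0 of -0.055 to 0.223 (Eif2ak4, Gcn Arg), -0.209 to 0.038 (Eif2ak2, Gcn Leu against Gcn Arg), -0.036 to 0.055 (Eif2ak3, Gcn Leu), -0.046 to 0.063 (Eif2ak3, unstarved genotypes), -0.065 to 0.181 (Eif2ak2, arginine interaction), -0.083 to 0.191 (Eif2ak4, leucine interaction) and -0.027 to 0.148 (Eif2ak2, Wt Leu). The causes of these changes were not tested. Counts of 88 to 215 limit the precision of Eif2ak4 in Gcn.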
